A study of Mus musculus with 6 samples.

Results

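The 40 genes described here are the genes used to mark S phase, the part of the cell cycle in which DNA is copied. They were taken from a fixed list of symbols, not from measured values, although earlier results of these data were known when the list was chosen. All 40 of them were found among the 27998 genes of the expression matrix. The study is single-cell RNA-seq of mouse retinas at embryonic day 14, made with droplet chemistry (version 2) that counts the 3 prime ends of transcripts by unique molecular identifiers (UMIs), each standing for 1 captured RNA molecule. It holds 3 genotype groups of 2 libraries each. The first group is heterozygous for the Bax deletion and null for Atoh7 (Bax het Atoh7 null). The second is null for Bax with wild-type Atoh7 (Bax null), and the third is null for both genes (Bax null Atoh7 null, called double null below). No group had both genes intact, so each comparison is between mutant genotypes, and all 6 libraries carried at least 1 deleted Bax allele. Atoh7 is the transcription factor that most retinal ganglion cells need in order to form, and Bax is a protein that drives apoptosis. The labels do not say whether the 2 libraries of a group came from separate embryos, so the errors and p-values measure only the spread between libraries, which may be technical.

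Copying a genome begins in G1, when Cdc6 and other factors load the ring of Mcm proteins onto origins. In S phase Cdc45 and the GINS complex turn that ring into the working helicase, the polymerases Pola1 and Pold3 with the primase Prim1 and the sliding clamp Pcna build the new strands, and ribonucleotide reductase (Rrm1, Rrm2) and thymidylate synthase (Tyms) supply the nucleotides. Chromatin factors such as Nasp, Chaf1b and Slbp, the protein that binds the stem-loop of histone mRNAs, provide the histones that wrap the new DNA. Most of these genes are switched on by E2F transcription factors late in G1. In the developing retina the progenitor cells divide, neurogenic cells are leaving the cycle, and ganglion cells, cones and horizontal cells are neurons or neuronal precursors that form after it, although horizontal cell precursors can divide once more.

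The promoters of a few members are printed because the levels below set Mcm5 and Mcm6, lower in neurogenic cells than in progenitors of every library, against Rrm2, higher in neurogenic cells, and because Hells differed between the Atoh7 null groups. RefSeq promoter windows (build GRCm38.p6, 250 bases before to 50 after the start site) matched 30 of the 40 genes. An E2F word (TTTCCCGC, TTTCGCGC, TTTGCCGC or TTTGGCGC, on either strand) was present in 12 of these 30 genes, or 40%, against 704 of the 27025 genes with a window of the same length, or 2.60%. The CCAAT word, on either strand, was present in 21 of the 30 genes and in 41.1% of all genes. The sequences follow from 5′ to 3′ on the strand of the gene, with each E2F word in capitals. The capital run of Mcm5 (chr8:75109259-75109558, plus strand) is a pair of words that overlap on opposite strands, and that of Mcm6 (chr1:128359656-128359955, minus strand) is another such pair followed by a single word. Hells (chr19:38930740-38931039, plus strand) has 1 word, 62 bases before the start site, and Rrm2 (chr12:24708004-24708303, plus strand) has none in this window. The words did not follow the split of the levels in other members: Ung, lower in neurogenic cells of every library, has 0 in its window, and Clspn, higher in every library, has 1.
Mcm5: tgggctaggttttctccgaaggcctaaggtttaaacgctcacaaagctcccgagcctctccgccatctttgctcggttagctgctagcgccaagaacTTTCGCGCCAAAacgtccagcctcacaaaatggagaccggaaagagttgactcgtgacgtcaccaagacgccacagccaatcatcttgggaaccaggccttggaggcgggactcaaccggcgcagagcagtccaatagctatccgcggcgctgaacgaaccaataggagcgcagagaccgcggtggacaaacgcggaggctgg
Mcm6: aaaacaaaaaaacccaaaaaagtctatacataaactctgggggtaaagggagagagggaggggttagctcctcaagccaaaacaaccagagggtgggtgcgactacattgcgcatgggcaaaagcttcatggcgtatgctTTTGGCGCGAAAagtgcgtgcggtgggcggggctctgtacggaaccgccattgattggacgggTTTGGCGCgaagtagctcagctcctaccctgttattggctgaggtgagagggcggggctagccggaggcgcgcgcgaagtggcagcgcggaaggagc
Hells: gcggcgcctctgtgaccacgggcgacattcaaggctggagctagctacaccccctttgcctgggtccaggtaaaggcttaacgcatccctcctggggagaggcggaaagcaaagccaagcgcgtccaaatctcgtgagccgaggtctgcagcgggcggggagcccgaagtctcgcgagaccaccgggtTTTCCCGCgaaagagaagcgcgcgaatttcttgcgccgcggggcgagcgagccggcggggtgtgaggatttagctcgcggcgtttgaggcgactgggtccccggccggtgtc
Rrm2: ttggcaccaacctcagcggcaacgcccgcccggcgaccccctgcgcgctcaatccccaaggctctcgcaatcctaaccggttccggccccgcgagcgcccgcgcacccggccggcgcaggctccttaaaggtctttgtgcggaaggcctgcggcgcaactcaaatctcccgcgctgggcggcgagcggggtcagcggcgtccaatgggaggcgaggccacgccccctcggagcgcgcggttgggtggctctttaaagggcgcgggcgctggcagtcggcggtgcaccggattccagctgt

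The 6 libraries held 9269 to 14730 cells each and between 22463515 and 66594431 UMIs. The Bax null libraries were the deepest, with medians of 5660.5 and 6804 UMIs per cell, against 1634 to 2632 in the other 4 libraries. The same cell barcode occurred in more than 1 library for 4534 of 62339 barcode sequences. Atoh7 had 0 UMIs in every cell type of the 4 Atoh7 null libraries, which allows up to 3 UMIs in each, and 22.5 and 21.1 CPM (counts per 1000000 UMIs) in the neurogenic cells of the Bax null libraries. Bax stood in progenitors at 126 and 89.0 CPM in the Bax het Atoh7 null libraries, at 11.8 and 10.7 CPM in the Bax null libraries, and at 37.9 and 5.83 CPM in the libraries labelled double null replicates 1 and 2. The library labelled double null replicate 1 thus carried more Bax RNA than both Bax null libraries, and counts of called members that rest on it are also given without it. The authors' 5 cell types were used. Their progenitor, neurogenic, ganglion, cone and horizontal markers each had the highest mean in the type of that name, although the cells named horizontal also had the highest mean of amacrine markers, 1346 CPM beside 1669 CPM of horizontal markers. The study's clusters were unevenly spread over genotypes: 8 progenitor clusters that held 36.9% of Bax null progenitors held 0.977% of the Bax het Atoh7 null and 1.09% of the double null progenitors.

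S phase RNA was several-fold higher in progenitor and neurogenic cells than in ganglion cells, cones and horizontal cells. Summed over the 40 genes and expressed in counts per 1000000 UMIs of the cell type (CPM), it came to 4589 and 4725 CPM in the progenitors of the Bax het Atoh7 null libraries, to 3715 and 3678 CPM in those of the Bax null libraries, and to 4329 and 5257 CPM in those of the double null libraries. Neurogenic cells held 4962 and 4992 CPM in the Bax het Atoh7 null, 3507 and 3372 CPM in the Bax null, and 4632 and 5220 CPM in the double null libraries. The neurogenic level was therefore between 0.917 and 1.08 times the progenitor level of the same library. Ganglion cells held 1192 and 1103 CPM, 794 and 692 CPM, and 1294 and 1194 CPM in the same order of groups, or 0.188 to 0.299 times the level of the progenitors. Cones (842 to 1465 CPM) and horizontal cells (1015 to 1728 CPM) lay in or just above that range. Within every type the Bax null libraries were the lowest in CPM, an order that depends on the scaling. Divided by TMM factors (trimmed mean of M-values, a scaling that centres the bulk of genes), the sums in progenitors were highest in the Bax null libraries, at 4847 and 4842, against 4142 and 4278 in the Bax het Atoh7 null and 3810 and 4255 in the double null libraries. In neurogenic cells (4371 and 4504 against 4086 to 4544) and ganglion cells (900 and 1014 against 989 to 1117) the Bax null libraries then overlapped the others. These values are sums over a type, in which fewer cells in S phase and less S phase RNA per cell cannot be told apart, and since the types were clustered on the same cells the differences between types are a description without a test.

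**Figure D1:**
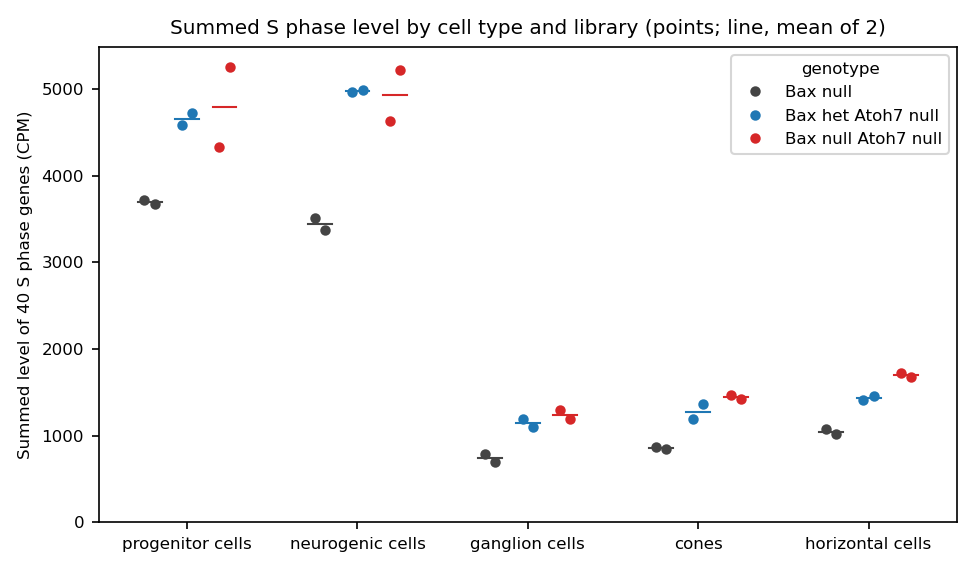
Summed level of the 40 S phase genes, in CPM of the cell type (vertical axis), in each cell type (horizontal axis), with 1 point per library coloured by genotype and a line at the mean of 2. Progenitor and neurogenic cells lie between 3372 and 5257 CPM, the other types between 692 and 1728 CPM, and the Bax null libraries are lowest in each type on this scale, while with TMM factors they are highest in progenitors.

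Per cell, the 40 genes took a median of 0.346% to 0.462% of a progenitor's UMIs, 0.302% to 0.390% of a neurogenic cell's and 0.055% to 0.101% of a ganglion cell's, as ranges over the 6 libraries. Because the libraries differ in depth, each cell with at least 1000 UMIs was also thinned at random to 1000. Shallower cells were left out, and this loss was uneven: it took 0 cells of the Bax het Atoh7 null libraries, 0.308% to 2.18% of a type in the Bax null libraries, and in the double null libraries 5.42% and 9.68% of progenitors, 5.33% and 10.9% of neurogenic cells and up to 30.3% of cones (replicate 2). Thinned progenitors spread from 0 S phase UMIs (3.70% to 7.08% of cells) to 15 or more, while 32.1% to 53.3% of thinned ganglion cells had 0. A high S phase range was set at 4 or more UMIs after thinning, the smallest count reached by under 5% of ganglion cells (3.69% on average over the libraries). Ganglion cells have left the cycle, so their share is read as the background that free RNA, doublets and misplaced cells can give. The range is a band of a continuous score and not a phase call: 13.3% to 16.3% of progenitors lay just under its limit at 3 UMIs and 11.4% to 14.4% lay just inside it at 4.

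**Figure D2:**
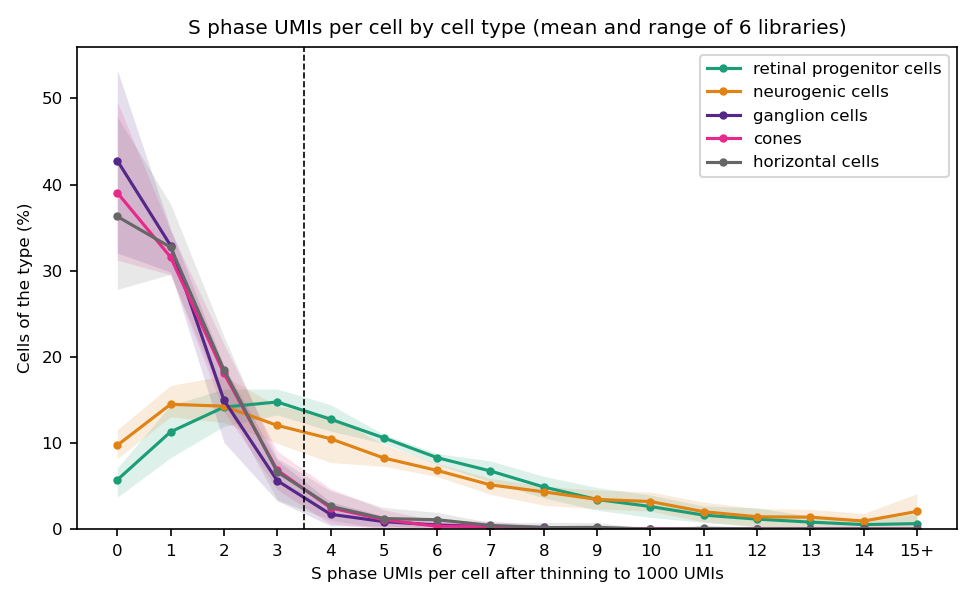
Share of cells of each type (vertical axis, percent) with a given number of S phase UMIs (horizontal axis) after thinning cells of at least 1000 UMIs to that depth (shallower cells left out), with lines at the mean and bands at the range of the 6 libraries and a dashed line at the lower limit of the high S phase range. Ganglion cells, cones and horizontal cells pile up at 0 and 1, and progenitor and neurogenic cells extend to 15 or more.

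In the high S phase range were 55.6% and 57.8% of progenitors of the Bax het Atoh7 null libraries, 47.2% and 46.9% of those of the Bax null libraries, and 54.1% and 62.8% of those of the double null libraries. As group means these were 56.7% ± 1.53, 47.1% ± 0.249 and 58.5% ± 6.15 (SD, n = 2). Neurogenic cells reached 54.1% and 54.1%, 42.8% and 41.1%, and 51.6% and 53.1% in the same order of groups. The Bax null shares lay under all 4 others in both types, and the 2 Atoh7 null groups overlapped in progenitors. The order depends on what the depth is measured against. When each library was thinned to a depth divided by its TMM factor (1305 and 1316 UMIs in the Bax null, 810 to 905 in the others), the progenitor share became 62.0% ± 0.204 in the Bax null libraries against 51.7% ± 1.84 in the Bax het Atoh7 null and 50.4% ± 3.25 in the double null libraries, and the neurogenic share 53.8% ± 1.07 against 49.4% ± 0.619 and 46.0% ± 1.86. Without any thinning the progenitor shares were 73.5%, 67.1% and 74.5%. The double null minus Bax null difference in progenitors, 11.4 points, was 7.06 points without double null replicate 2 and 15.8 without the library labelled double null replicate 1. With 2 libraries a group an exact permutation test cannot give a p below 0.33, and as a score over the listed genes the share was given no test.

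The range was set so that few ganglion cells reach it, and what can vary is their share between groups. It included 4.35% and 3.03% of ganglion cells of the Bax het Atoh7 null libraries, 1.99% and 1.16% of those of the Bax null libraries and 6.62% and 4.99% of those of the double null libraries. Leaving out the 5364 cells with the highest doublet scores lowered the ganglion means from 3.69%, 1.57% and 5.80% to 2.08%, 0.906% and 3.26%. Cones had means of 4.03% ± 2.25, 1.16% ± 0.529 and 8.06% ± 0.311 and horizontal cells of 5.94% ± 0.395, 2.45% ± 0.470 and 9.19% ± 3.12 in the same order, and with doublets left out the means were 1.89%, 0.694% and 4.68% in cones and 3.45%, 0.873% and 4.62% in horizontal cells. Thinned to a depth divided by the TMM factor, the ganglion means were 3.10%, 3.11% and 3.73%, those of cones 2.70%, 4.25% and 5.08%, and those of horizontal cells 3.97%, 5.23% and 6.84%, so that the Bax null libraries were no longer the lowest.

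Gene by gene, the ganglion cells fell below progenitors of their own library for all 40 genes in all 6 libraries, with a median ratio of 0.171. Among the 5575 genes at 20 CPM or more in progenitors, 41.1% were lower in ganglion cells in all 6 libraries and the median ratio was 0.964. Cones (median 0.20) and horizontal cells (median 0.225) were likewise below progenitors for all 40, against 31.6% of all genes in either type. The 3 lowest ganglion ratios belonged to E2f8, a repressor of E2F targets (0.0633), Brip1, a repair helicase (0.0756), and Exo1, an exonuclease (0.0905), each of which rested on as few as 1 to 4 UMIs in a library. The 3 highest belonged to Slbp (0.536), to Ubr7 (0.528) and to Casp8ap2, a protein of the bodies where histone genes are transcribed (0.520). Casp8ap2 stood at ratios of 0.540 and 0.508 in the Bax het Atoh7 null, 0.493 and 0.459 in the Bax null and 0.673 and 0.533 in the double null libraries. Ubr7 gave 0.570 and 0.430, 0.486 and 0.394, and 0.584 and 0.572 in the same order. Slbp was the member whose ganglion ratio split most clearly by library: 0.302 and 0.308 in the Bax null libraries and 0.525 to 0.633 in the other 4. Pcna gave ratios of 0.190 to 0.272 and Mcm5 of 0.0991 to 0.221.

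**Figure D3:**
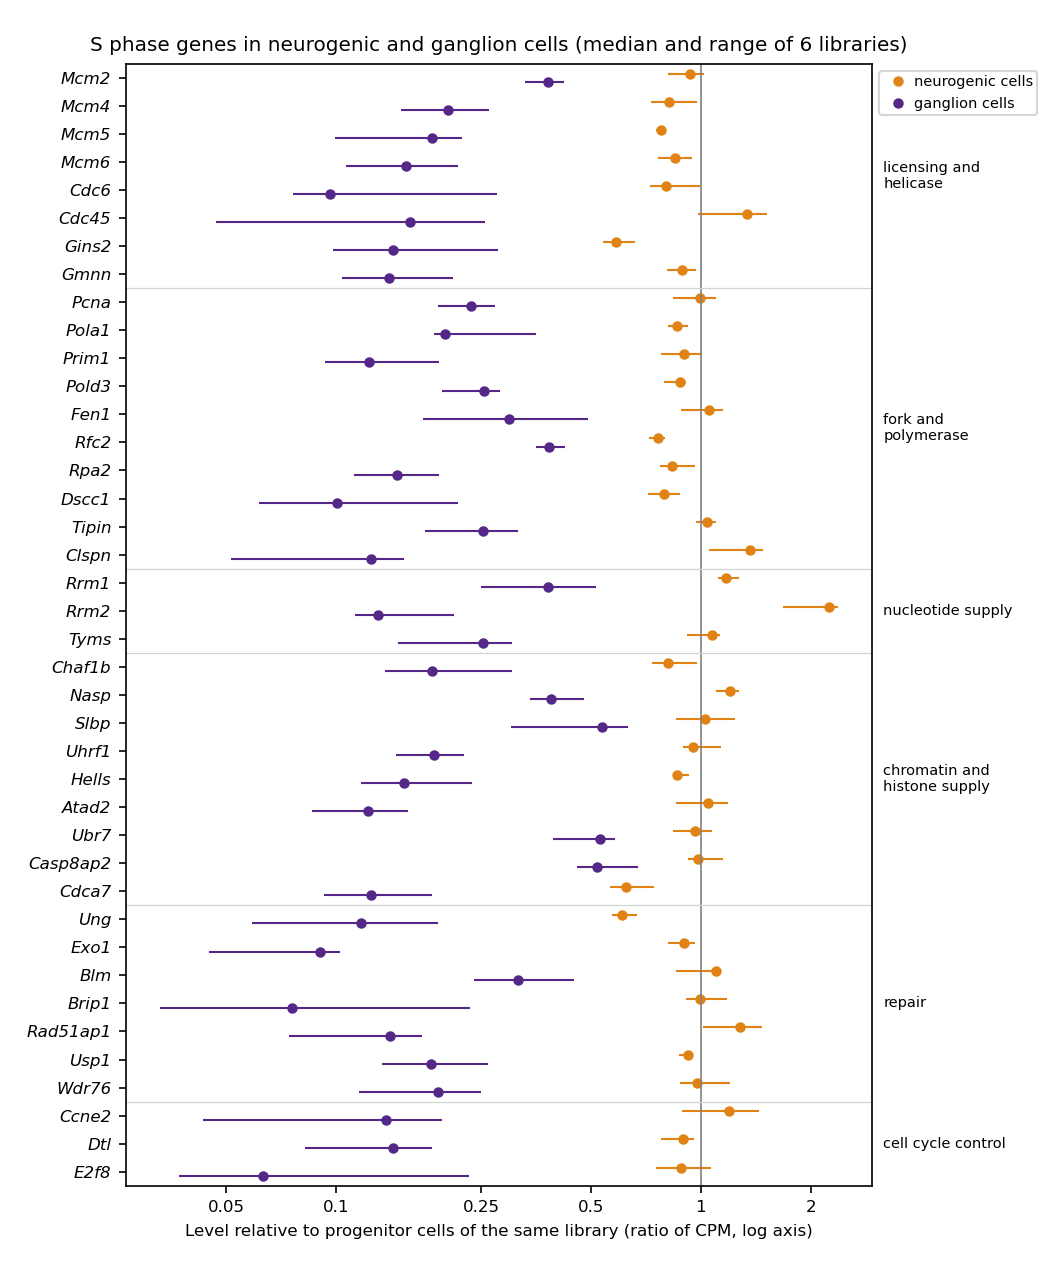
Ratio of the level of each of the 40 S phase genes in neurogenic cells (orange) and ganglion cells (purple) to that in progenitors of the same library (horizontal log axis), with points at the median and lines over the range of 6 libraries, grouped by role. Ganglion ratios lie under 1 for every gene, while neurogenic ratios scatter around 1, from 0.586 for Gins2 to 2.25 for Rrm2.

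Neurogenic cells kept S phase RNA but with another makeup. In all 6 libraries 18 members were below progenitors, 5 were above and 17 were mixed, with a median ratio of 0.929, the same counts as without the library labelled double null replicate 1, whereas over all 5575 genes 28.9% were below in all 6 and the median was 1.02. The share of all genes above progenitors in all 6 was not computed, so the 5 have no background beside them. Of the 8 licensing and helicase genes 6 were below in every library and none above. Gins2, a GINS subunit, had the lowest ratio, 0.586 (0.541 to 0.660 over the libraries), followed by the uracil glycosylase Ung at 0.609 (0.571 to 0.667) and by Cdca7, a partner of the chromatin remodeller Hells, at 0.624 (0.564 to 0.745). Mcm5 held a narrow band from 0.752 to 0.799. At the other end, Rrm2, the regulated subunit of ribonucleotide reductase, was higher in neurogenic cells of every library, at 2.31 and 2.37 times the progenitor level in the Bax het Atoh7 null, 1.90 and 1.68 times in the Bax null and 2.34 and 2.18 times in the double null libraries. In levels this was 477 and 543 CPM in neurogenic cells against 206 and 229 CPM in progenitors of the Bax het Atoh7 null libraries. Clspn, the adaptor of the replication checkpoint, had a median ratio of 1.36 (1.05 to 1.48) and Cdc45 one of 1.34, with 1 library just under 1 (0.984). Rad51ap1, a recombination factor (1.28), Nasp, a histone chaperone (1.2), and Rrm1 (1.17) were also above in all 6 libraries, while the median for Pcna was 0.995.

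S phase RNA also varied several-fold among the authors' clusters of progenitors. Mean summed S phase level in a progenitor cluster went from 2019 CPM, with 15.3% of its cells in the high range (cluster 99), to 9029 CPM, with 96.3% (cluster 114). Neurogenic clusters went from 1356 CPM to 8661 CPM, with 93.5% of cells in the high range (cluster 16), and ganglion clusters only from 480 to 1373 CPM. Horizontal clusters went from 945 CPM to 1994 CPM, with 14.6% of cells in the high range (cluster 45), close to the lowest progenitor cluster. The 10 genes most raised in cluster 45 over all other cells included the amacrine markers Ptf1a and Prdm13 and none of the horizontal markers. Since some clusters came almost only from 1 genotype, the levels of the members were correlated over clusters inside each library, with the 28 to 66 progenitor clusters that held at least 50 of its cells. Of the 38 members other than Mcm5 and Rrm2, 9 followed Mcm5 more closely than Rrm2 in all 6 libraries, 16 followed Rrm2 more closely in all 6, and 13 were mixed. Mcm6 was among the first, with a Spearman rho of 0.812 to 0.927 with Mcm5 and of 0.498 to 0.654 with Rrm2, as were Mcm4, Mcm2, Ung, Gins2 and Cdca7 (0.640 to 0.765 and 0.109 to 0.368). Clspn was among the second, with 0.455 to 0.652 and 0.753 to 0.884, as were Cdc45, the flap endonuclease Fen1 and Rad51ap1. All 9 of the first had a median neurogenic ratio under 1. The second were evenly split, 8 under 1 and 8 over, and Gmnn, the inhibitor of a further round of licensing, was one that followed Rrm2 (0.754 to 0.913) at a neurogenic ratio of 0.888. Slbp followed the sum of the other members with a rho of 0.581 to 0.935 inside the libraries and of only 0.442 over 81 clusters pooled over all libraries. Relative to its median cluster, with libraries pooled, Ccne2, the cyclin that starts S phase, peaked 8.56-fold and Cdc6 8.44-fold, whereas Nasp, the member with the largest part of the summed UMIs of progenitors (13.7%), peaked only 1.5-fold. The clusters were drawn from the same expression values, so these correlations carry no p-value.

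Between genotypes, UMIs were summed per library within a type, scaled with TMM factors and tested with edgeR's quasi-likelihood test across all genes that passed a filter on low counts, and a gene was called at a Benjamini-Hochberg adjusted p under 0.05. The 3 contrasts share groups, so their calls are not independent. Both contrasts with the Bax null libraries called about 1 gene in 2 over the whole transcriptome, and those libraries also differed in depth and in TMM factor (0.760 to 0.783 against 1.08 to 1.24). The 3 erythroid markers, RNA of red blood cells, summed to 269 to 625 CPM in every cell type of the Bax null libraries and to 1.21 to 152 CPM in the other 4, and their part in the results was not tested. Atoh7 genotype and whatever else set the Bax null libraries apart cannot be told apart. The choice of scaling sets the balance of directions here: scaling by total counts instead moved the median log2 change of all progenitor genes to 0.64 in the double null minus Bax null contrast and to 0.54 in the Bax het Atoh7 null minus Bax null contrast, and to between 0.50 and 0.63 in neurogenic and ganglion cells. The changes below are relative to the bulk of genes, as TMM sets it. For these contrasts the shares of all genes called under total counts, or with a library left out, are not given. Member counts under those settings therefore have no background beside them. Without the library labelled double null replicate 1, the double null minus Bax null contrast called 24 members in progenitors, 25 in neurogenic and 15 in ganglion cells, against 21, 25 and 17 with it. Without it the double null minus Bax het Atoh7 null contrast called 1, 1 and 0.

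In progenitors, Mcm2, Mcm5, Mcm6 and both subunits of ribonucleotide reductase were higher in both Atoh7 null groups than in the Bax null libraries, and Slbp, Tipin, Casp8ap2, Ubr7 and Ccne2 were lower. The double null minus Bax null contrast called 21 of 40 members, 6 higher and 15 lower, where 53.9% of all tested genes were called (26.8% higher and 27.1% lower), so the share of members called was close to the background. Under total counts the split was 27 higher and 2 lower, at an all-gene median log2 change of 0.637. By TMM the members' median log2 change was -0.17 against 0.01 for all genes. The Bax het Atoh7 null minus Bax null contrast called 8 higher and 14 lower (53.2% of all genes called, 26.6% higher and 26.5% lower), with a median of -0.11. Under total counts it called 25 higher and 2 lower, at an all-gene median of 0.539. The 8 higher members by TMM were Mcm2, Mcm4, Mcm5, Mcm6, Rrm1, Rrm2, the polymerase delta subunit Pold3 and Cdca7. By role, the double null and the Bax het Atoh7 null contrasts called 3 and 4 of 8 licensing and helicase genes higher and 2 lower in each, 2 of 3 nucleotide supply genes higher and 0 lower in each, and 1 of 10 fork and polymerase genes higher and 3 lower in each. Of the 9 genes of chromatin and histone supply they called 0 and 1 higher and 6 and 5 lower, and of the 7 repair genes 0 higher and 3 lower in each.

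Mcm2, a subunit of the helicase ring, stood in progenitors at 88.8 and 99.9 TMM-scaled CPM in the Bax het Atoh7 null, 46.3 and 48.3 in the Bax null and 80.6 and 101 in the double null libraries. The Bax null libraries lay at about the same low level, and the other 4 did not overlap them. The log2 change was 0.94 ± 0.11 (SE, adjusted p = 1.54e-04) in the double null and 0.995 (adjusted p = 1.19e-04) in the Bax het Atoh7 null against the Bax null libraries. Mcm6 behaved alike, at 170 and 179, 90.5 and 95.02, and 142 and 179 TMM-scaled CPM, with log2 changes of 0.79 and 0.91. Rrm2 stood at 186 and 207, 135 and 117, and 156 and 203, with changes of 0.51 in the double null and 0.64 in the Bax het Atoh7 null contrast, and Mcm5 changed by 0.53 and 0.59. Mcm4 was called in the Bax het Atoh7 null contrast (0.52, adjusted p = 0.00744) and not in the double null contrast (0.22, adjusted p = 0.174), and the Atoh7 null groups did not differ by the test in it (-0.30, adjusted p = 0.335).

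Slbp made the largest change of the list, in the opposite direction. It stood at 275 and 261 TMM-scaled CPM in Bax null progenitors, at 32.6 and 39.6 in those of the Bax het Atoh7 null group and at 34.5 and 35.3 in those of the double null group, so that 4 libraries clustered tightly far below the other 2. The log2 change was -2.94 ± 0.11 (SE, adjusted p = 9.08e-08) in the double null and -2.89 (adjusted p = 1.15e-07) in the Bax het Atoh7 null contrast. In plain CPM it was higher in the Bax null libraries in every type: 90.4 and 99.8 in cones against 20.9 to 30.7, and 82.4 and 93.9 in horizontal cells against 20.6 to 25.8. The Slbp gene lies at chr5:33634952-33652574 on the minus strand (GENCODE annotation of GRCm38). Tipin, a fork protection factor, was also lower, at 252 and 275 (Bax het Atoh7 null) and 258 and 274 (double null) TMM-scaled CPM against 484 and 488 in the Bax null libraries, a log2 change of -0.88 and -0.87. Casp8ap2 fell by 0.81 and 0.61 on the log2 scale and Ubr7 by 0.63 and 0.61. Ccne2 stood at 21.7 and 26.4 in the Bax het Atoh7 null, 38.3 and 35.3 in the Bax null and 16.3 and 18.5 TMM-scaled CPM in the double null progenitors, and it fell by 0.61 and by 1.09. Gmnn, the inhibitor of a further round of licensing, and Gins2 fell by 0.54 and 0.50 in the double null contrast. These 2 falls, and those of Casp8ap2 and Ubr7 in the same contrast, are smaller than 0.637. That is the all-gene median log2 change of the contrast under total counts, so the direction of these falls cannot be read apart from the scaling. Pcna, the clamp, was not called (-0.51 ± 0.22, adjusted p = 0.0838), and its double null libraries were far apart, at 79.8 and 141 TMM-scaled CPM.

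Among 40 other replication genes, a list chosen for their function in licensing, elongation and nucleotide supply, the double null contrast called 11 higher and 17 lower in progenitors and the Bax het Atoh7 null contrast 13 and 16 (11 and 15 in the former without the library labelled double null replicate 1). With all 6 libraries these contrasts called 53.9% and 53.2% of all tested genes in progenitors. Timeless, the partner of Tipin, was higher, at 62.6 and 67.2 (Bax het Atoh7 null) and 70.1 and 78.1 (double null) TMM-scaled CPM against 36.8 and 36.1 in the Bax null libraries, the opposite direction to Tipin. The lowest called changes were -1.58 for Rpa3, a subunit of the single-strand binding complex, in the double null contrast and -0.82 for Pole, the leading-strand polymerase, in the Bax het Atoh7 null contrast.

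In neurogenic cells most licensing genes were higher in the Atoh7 null groups: 6 of 8 were called higher and 2 lower in both contrasts with the Bax null libraries. Of the nucleotide supply genes 2 and 3 of 3 were higher, and of the 9 genes of chromatin and histone supply 4 and 3 were lower and 0 higher, in the double null and the Bax het Atoh7 null contrast. The double null minus Bax null contrast called 13 members higher and 12 lower (47.3% of all genes called, 23.5% higher and 23.8% lower) with a median of -0.07, and the Bax het Atoh7 null minus Bax null contrast called 13 higher and 9 lower (47.1%, 23.4% higher and 23.8% lower) with a median of 0.04. Total counts gave 27 higher and 1 lower, and 31 higher and 1 lower, at all-gene median log2 changes of 0.593 and 0.508. Rrm2 stood at 430 and 494 TMM-scaled CPM in the Bax het Atoh7 null, 252 and 194 in the Bax null and 367 and 455 in the double null neurogenic cells, without overlap between the Bax null libraries and the rest. Its log2 changes were 1.05 and 0.88. Mcm2 stood at 80.4 and 90.1, 43.9 and 38.6, and 81.3 and 106 in the same order and rose by 1.05 and 1.18, and Mcm6 rose by 1.05 and 0.93. Every Mcm value of the Bax null libraries lay below those of the other 4 for these 2 genes. Cdc45, Clspn, Cdc6 and Fen1, which are helicase, checkpoint, loading and flap-cleaving factors, were called higher in both contrasts (0.35 to 0.53 in the double null contrast). Slbp stood at 40.2 and 43.4 in the Bax het Atoh7 null, 241 and 219 in the Bax null and 40.1 and 34.6 in the double null libraries, and fell by 2.46 and 2.62. Tipin fell by 0.72 and 0.71, and Blm, the helicase that resolves recombination intermediates, by 0.51 and 0.78 (31.3 and 31.8, 44.5 and 45.5, and 27.4 and 24.8 TMM-scaled CPM). Gins2, the lowest of the neurogenic ratios, stood at 52.1 and 52.4, 78.8 and 88.3, and 65.1 and 66.6, and fell by 0.68 and 0.34. The fall of 0.34 is smaller than 0.593, the all-gene median log2 change of the double null contrast under total counts. The Bax het Atoh7 null count of 22 members was lower without Bax null replicate 1, in a fit whose share of all genes called is not given. Progenitor markers also differed: their summed level in neurogenic cells was 0.526 and 0.592 times that in progenitors in the Bax null libraries and 0.397 to 0.461 times in the others. The same ratio for the summed S phase genes had the opposite order, at 0.944 and 0.917 in the Bax null libraries and 0.993 to 1.081 in the others. The 7 neurogenic markers summed to 2919 and 3319 CPM in neurogenic cells of the Bax null libraries against 5645 to 6825 CPM in the others, and the 9 ganglion markers to 676 and 745 CPM against 1285 to 1650 CPM, and the part of these differences in the S phase values was not tested. Of the other replication genes, 11 were higher and 10 lower in the double null contrast (11 and 8 without the library labelled double null replicate 1) and 14 and 12 in the Bax het Atoh7 null contrast.

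In ganglion cells most of the called S phase genes were higher in the Atoh7 null groups. Of the 40, 36 passed the filter on low counts. The double null minus Bax null contrast called 15 higher and 2 lower (52.7% of all genes called, 26.2% higher and 26.5% lower). The Bax het Atoh7 null minus Bax null contrast called 15 higher and 3 lower (50.0%, 25.0% in each direction). The members' medians were 0.47 and 0.37 against 0.02 and 0.01 for all genes. Total counts gave 30 higher and 1 lower, and 27 higher and 1 lower, at all-gene median log2 changes of 0.627 and 0.502. Levels were low: Mcm6 stood at 22.9 and 27.2 TMM-scaled CPM in the Bax het Atoh7 null, 14.4 and 10.0 in the Bax null and 30.2 and 29.9 in the double null ganglion cells, with log2 changes of 1.06 and 1.30. Rrm2 stood at 39.6 and 29.8, 15.7 and 13.0, and 29.2 and 23.7, with 1.24 and 0.88. Mcm5 stood at 20.5 and 16.4, 11.8 and 6.80, and 19.9 and 22.9, and rose by 0.96 and 1.2. Ung, which removes uracil from DNA, stood at 9.54 and 10.5, 6.82 and 5.13, and 15.1 and 12.01, and rose by 0.75 and 1.19. Fen1 rose by 1.03 and 1.12 and Mcm4 by 1.06 and 0.81. Cdc45 was called in the Bax het Atoh7 null contrast alone (1.41 ± 0.44, adjusted p = 0.0177, against 0.0547 in the other), and that call was lost with doublets left out (adjusted p = 0.0755). Slbp stood at 18.6 and 25.5, 81.3 and 79.4, and 18.6 and 18.9, and fell by 1.83 and 2.10. Tipin was lower by TMM (-0.43 and -0.30) and higher by total counts (0.055 and 0.30). Beside these genes, the 7 progenitor markers summed to 528 and 359 CPM in Bax null ganglion cells and to 1081 to 1417 CPM in the other 4 libraries, and the ganglion markers were lower in the Atoh7 null groups (7 of 9 called in the double null contrast and 8 of 9 in the other). The Bax het Atoh7 null count of 18 S phase genes was lower without Bax null replicate 2, in a fit whose share of all genes called is not given. The cells named ganglion cells thus differed between groups in the summed level of progenitor markers, given in plain CPM without TMM factors. The source of this RNA and its part in the S phase values were not tested. The clusters of the cells named ganglion cells differed too: 8 clusters held 55.1% of Bax null ganglion cells but 2.32% of the Bax het Atoh7 null and 4.02% of the double null ganglion cells.

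**Figure D4:**
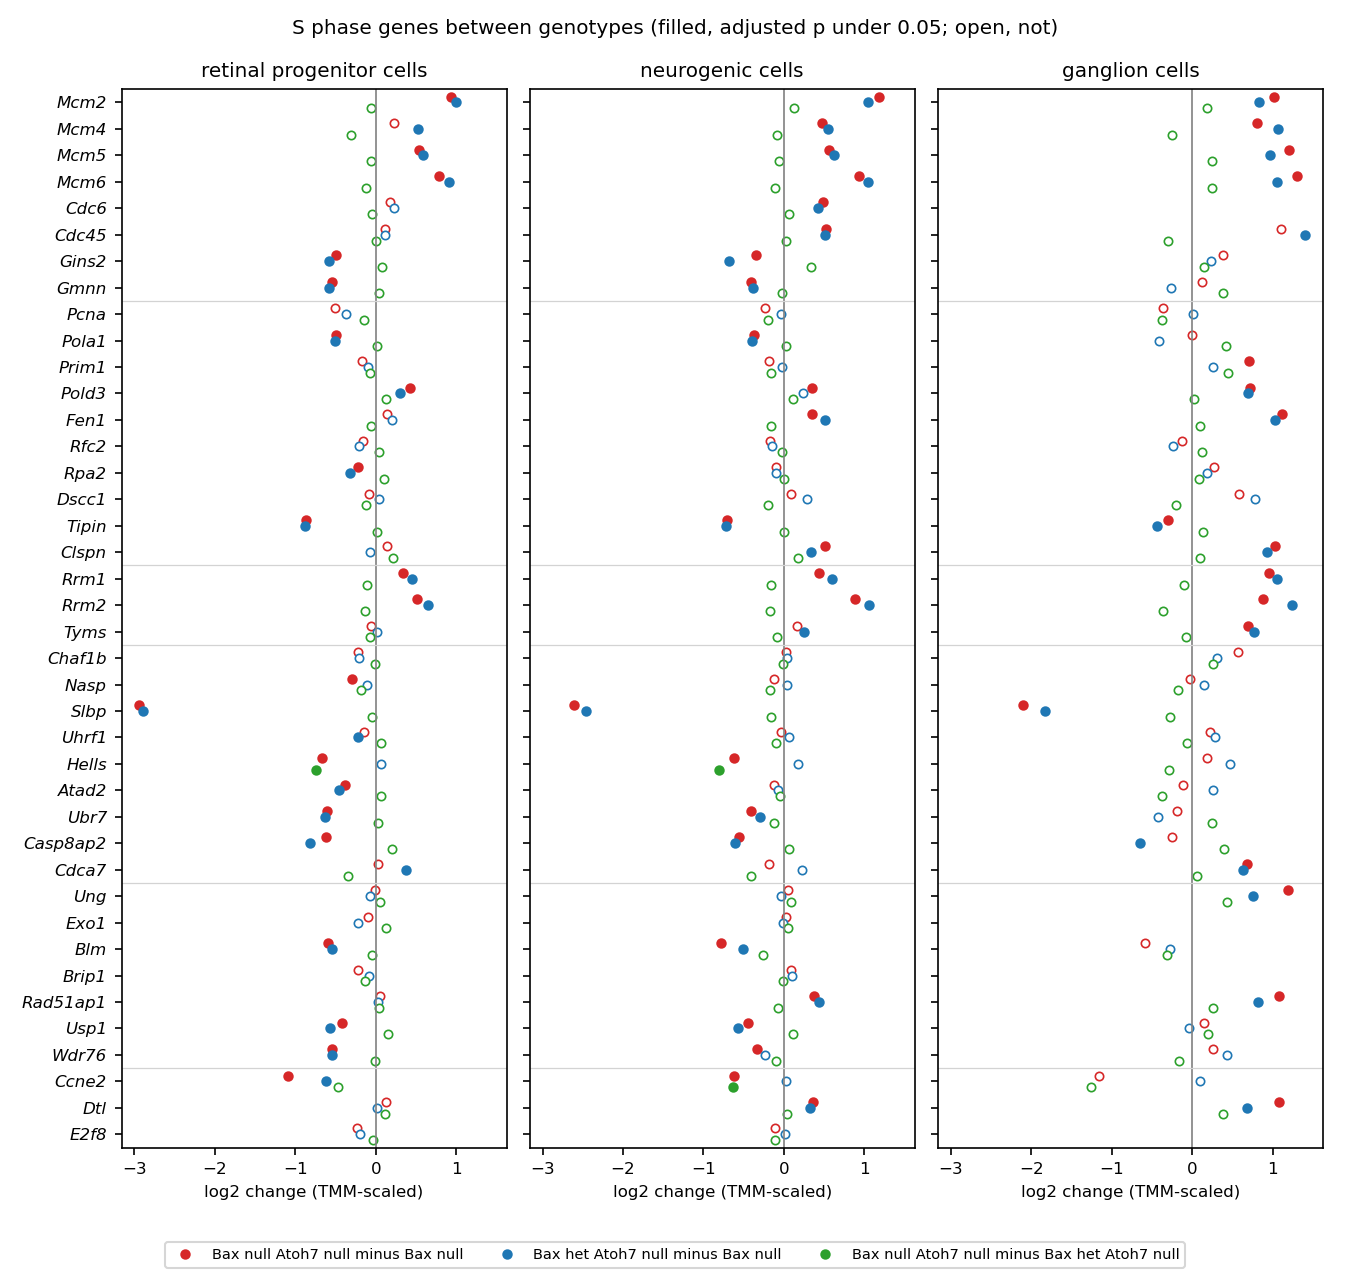
Log2 change of each S phase gene (horizontal axis) in progenitors, neurogenic cells and ganglion cells for the 3 genotype contrasts, scaled by TMM, with filled points for an adjusted p under 0.05 and open points otherwise. Slbp lies far to the left in both contrasts with the Bax null libraries, at -2.94 and -2.89 in progenitors, the Mcm genes lie to the right, and the contrast between the Atoh7 null groups stays near 0 for most genes.

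Few members were called between the Atoh7 null groups, which differ in whether a Bax allele remains. The double null minus Bax het Atoh7 null contrast called 0 members higher and 1 lower in progenitors, where 2.01% of all genes were called (0.0597% higher and 1.95% lower). The same contrast in neurogenic cells called 0 higher and 2 lower, where 1.77% of all genes were called (0.00857% higher and 1.76% lower). In ganglion cells it called 0 members by edgeR and by DESeq2, where edgeR called 2.34% of all genes (0.246% higher and 2.1% lower). At an unadjusted p under 0.05 edgeR gave 5 members in progenitors, 5 in neurogenic and 2 in ganglion cells. The share of all genes at that unadjusted threshold was not computed, and the percents above are for adjusted p. Hells, the chromatin remodeller that helps to maintain DNA methylation, was the member called in both of these types. It stood in progenitors at 163 and 185 TMM-scaled CPM in the Bax het Atoh7 null, 162 and 171 in the Bax null and 118 and 90.5 in the double null libraries. Both double null libraries were the lowest, by -0.74 ± 0.12 (SE, adjusted p = 0.0216) against the Bax het Atoh7 null libraries. In neurogenic cells Hells stood at 151 and 164, 134 and 145, and 100 and 80.0, a change of -0.80 ± 0.12 (adjusted p = 0.00457). Without the library labelled double null replicate 1 the changes were -0.94 and -1.002, both called. The progenitor call was lost without either Bax het Atoh7 null library (adjusted p = 0.0883 and 0.221). Ccne2 in neurogenic cells, at 31.3 and 33.9 against 18.5 and 23.7 TMM-scaled CPM, changed by -0.64 (adjusted p = 0.0418), a call that did not hold with DESeq2 (adjusted p = 0.102) or without any 1 of 5 of the 6 libraries (adjusted p from 0.0834 to 0.385). Without double null replicate 2 the contrast called 4 members in progenitors and 3 in neurogenic cells, and without Bax het Atoh7 null replicate 2 it called 0 in both. Among the other replication genes Rpa3 was lower by 0.85 in progenitors (42.9 and 44.0 against 70.9 and 86.0 TMM-scaled CPM) and by 0.95 in neurogenic cells.

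Comparing types inside each library sets aside what a library shares across its types, its scaling included. The within-library difference is the change in a type minus the change in progenitors of the same libraries, tested with the library as a term. In neurogenic cells it was positive for 12 called members and negative for 0 in the double null minus Bax null contrast, where 7.46% of all genes were called (4.21% positive and 3.25% negative). It was positive for 18 and negative for 0 in the Bax het Atoh7 null minus Bax null contrast, where 8.36% were called (4.23% and 4.14%). In ganglion cells it was positive for 23 members and negative for 0 in the double null contrast, where 15.7% of all genes were called (8.15% and 7.53%), and positive for 17 and negative for 0 in the Bax het Atoh7 null contrast, where 15.2% were called (7.41% and 7.81%). Between the Atoh7 null groups 0 members were called in either type by edgeR (0.0% and 0.102% of all genes, with 4 and 5 members at an unadjusted p under 0.05, where the share of all genes was not computed). The members' share was thus above the background in the 4 contrasts with the Bax null libraries, at 30.0% and 45.0% in neurogenic and 57.5% and 42.5% in ganglion cells. The filter on low counts took a type and progenitors together in these fits. With ganglion cells it kept all 40 members and 13670 genes, against 36 members and 10586 genes for ganglion cells alone. The ganglion shares thus include members and other genes too low in ganglion cells to pass there.

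Rrm2, whose neurogenic level exceeded its progenitor level in every library, did so more in the Atoh7 null groups, with a within-library difference of 0.40 ± 0.06 (adjusted p = 2.00e-06) in the double null contrast. Clspn differed by 0.43 ± 0.07 (adjusted p = 2.20e-05) and Ccne2 by 0.64 ± 0.12 (adjusted p = 2.89e-04) in the Bax het Atoh7 null contrast. In ganglion cells the difference was 1.01 ± 0.18 for Fen1 and 1.22 ± 0.24 for Ung in the double null contrast, and 1.05 ± 0.16 for Slbp in the Bax het Atoh7 null contrast. For Slbp and Tipin the sign is opposite to that of the plain contrasts, because they fell less in neurogenic and ganglion cells than in progenitors. Without the library labelled double null replicate 1 the double null counts were 3 in neurogenic and 7 in ganglion cells, or 7.5% and 17.5% of the members beside 5.36% and 10.1% of all genes in the same fits. Without Bax null replicate 2 they were 3 and 13, or 7.5% and 32.5% beside 2.36% and 10.1%. For the Bax het Atoh7 null contrast, leaving out Bax null replicate 2 gave 7 and 6 (3.09% and 9.82% of all genes called), and leaving out the first Bax het Atoh7 null library gave 10 and 7 (5.07% and 8.91%). Leaving doublets out gave 6 and 11 in neurogenic and 14 and 9 in ganglion cells for the double null and Bax het Atoh7 null contrasts.

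Markers of other classes moved in the same within-library comparisons. In ganglion cells 7 of 7 progenitor markers were higher and 8 of 9 ganglion markers lower relative to progenitors in both contrasts with the Bax null libraries. In neurogenic cells 5 of the 7 progenitor markers, Sfrp2, Fgf15, Hes1 and Lhx2 among them, were lower and 0 higher in both of these contrasts, the direction opposite to that of the S phase genes there. Doublet scores reached the limit in 20.3% and 20.5% of Bax null neurogenic cells and in 13.1% to 15.4% of those of the other libraries. The part of these in the S phase values was not tested.

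**Figure D5:**
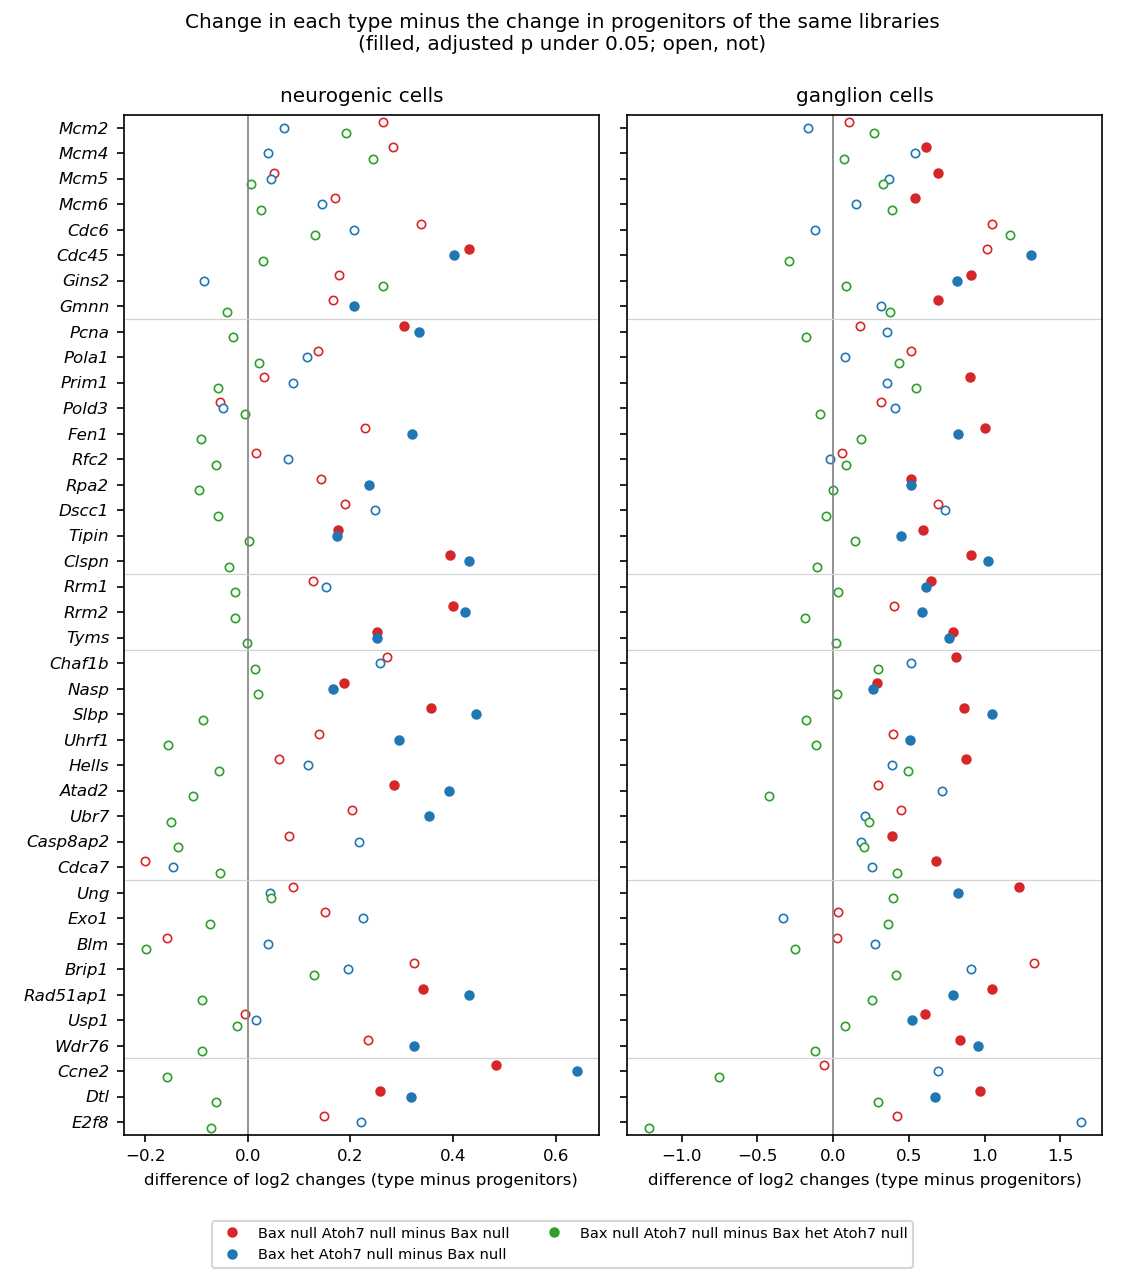
Within-library difference of log2 changes (horizontal axis, change in the type minus change in progenitors) of each S phase gene in neurogenic and ganglion cells for the 3 contrasts, with filled points for an adjusted p under 0.05. Every filled point is to the right of 0, and the contrast between the 2 Atoh7 null groups has no filled point.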

How the data were processed

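Droplet single-cell RNA-seq libraries were sequenced from retinas of 3 genotypes, 2 libraries each. The deposited values are raw UMI counts per gene and cell, with a table of cells that gives each cell's library, cluster and 1 of 5 cell types, all made by the authors. Cell Ranger 1.2.1 and the mm10 build are named per the submitters' processing notes. In all 67050 cells of the 6 libraries the matrix counts summed to the deposited total. Cells of 2 further libraries in the same matrix (26078 cells) were not used. No doublet removal is recorded in the sources used here. Scrublet scores (scanpy 1.11.5) were computed per library, and the top 8% of cells were left out in an alternative only.

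UMIs were summed per library and type. They were tested with edgeR 4.0.16 (R 4.3.3; filterByExpr, TMM factors, quasi-likelihood F test, 3 groups in 1 fit, Benjamini-Hochberg over all genes tested), and with DESeq2 1.42.0 as an alternative. Exact Poisson and binomial intervals, computed at 95%, cover counting error only. The fits were tested on simulated data.

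The members and gene lists were chosen with earlier results of these data known. The genes named are those with the 3 lowest and 3 highest ratios between types, and the 3 highest and 3 lowest called changes per contrast whose groups did not overlap. Pcna, Mcm5 and the extreme called genes of the other replication list were added, and further members are named as examples of their role after their values were seen. Alternatives covered scaling, tool, filter, depth, doublets, clusters and each library left out. The within-library counts with doublets, clusters or libraries left out, the TMM-scaled sums, the cluster correlations within a library and the counts without the library labelled double null replicate 1 were added after seeing the data. The result of 1 marker gene is not reported here.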

Additional observations from a re-analysis of the deposited data

Results flagged for a closer look

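The change between genotypes differed between cell types of the same libraries for part of the S phase genes, by edgeR's test of the difference itself. In neurogenic cells against progenitors, 12 members differed in the double null minus Bax null contrast and 18 in the Bax het Atoh7 null minus Bax null contrast. In ganglion cells against progenitors the counts were 23 and 17. Over all genes the same fits called 7.46%, 8.36%, 15.7% and 15.2%. With 1 library left out the lowest counts were 3 and 7 in neurogenic and 7 and 6 in ganglion cells. All these differences were positive on the log2 scale.

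In the double null minus Bax null contrast of neurogenic cells the difference was 0.40 for Rrm2, 0.43 for Cdc45 and 0.48 for Ccne2. In the Bax het Atoh7 null minus Bax null contrast it was 0.43 for Clspn, 0.44 for Slbp and 0.64 for Ccne2. Ganglion cells gave 1.01 for Fen1, 1.05 for Rad51ap1 and 1.22 for Ung in the double null contrast, and 1.02 for Clspn, 1.05 for Slbp and 1.31 for Cdc45 in the Bax het Atoh7 null contrast. Both contrasts use the same 2 Bax null libraries, in which the S phase genes of progenitors and of the other types can be read only against each other.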

How the results depend on the processing

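The named changes made 38 entries, each 1 S phase gene in 1 cell type and 1 contrast, with many genes entered more than once. They are the largest called changes of each contrast, so smaller changes are not covered here. Of 584 recomputed values of these entries, 532 kept their direction and their side of the threshold. A further 41 kept the direction and lost the call (14 of them with a library left out), and 11 reversed. Of the reversals 9 came from the within-library difference, which measures another quantity: Slbp 0.36 and Tipin 0.18 (neurogenic, double null minus Bax null), Slbp 0.44 and Tipin 0.17 (neurogenic, Bax het Atoh7 null minus Bax null), Slbp 0.86 and Tipin 0.59 (ganglion, double null minus Bax null), and Slbp 1.05, Tipin 0.45 and Casp8ap2 0.18 (ganglion, Bax het Atoh7 null minus Bax null). The other 2 came from total counts, with Tipin in ganglion cells at 0.30 in the double null and 0.055 in the Bax het Atoh7 null contrast.

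Counts of called members with 1 library left out ranged from 16 to 26 and 17 to 27 in progenitors, 17 to 25 and 14 to 24 in neurogenic cells, and 15 to 19 and 11 to 20 in ganglion cells, for the double null and the Bax het Atoh7 null against the Bax null libraries. Between the Atoh7 null groups they ranged from 0 to 4 in progenitors and 0 to 3 in neurogenic cells. In that contrast of neurogenic cells total counts, DESeq2, the fit of only the 4 libraries compared and thinning to equal totals each gave 1, and the within-library difference 0. In the double null minus Bax null contrast of neurogenic cells the within-library difference gave 12. In ganglion cells total counts gave 31 and 28. The within-library counts with doublets left out were 6 and 11 (neurogenic) and 14 and 9 (ganglion), and with 1 library left out 3 to 12 and 7 to 18 (neurogenic) and 7 to 27 and 6 to 19 (ganglion). With doublets left out the same fits called 5.4% and 6.94% of all genes (neurogenic) and 13.6% in each contrast (ganglion). Where a library is left out its group has 1 sample, assumed to vary like the others. For the plain contrasts the share of all genes called is not given with a library left out or under total counts. With the replicate number as a block the counts were 21, 1 and 22 in progenitors (double null minus Bax null, double null minus Bax het Atoh7 null, Bax het Atoh7 null minus Bax null), 25, 2 and 21 in neurogenic cells and 19, 0 and 20 in ganglion cells. Correlations of same-numbered libraries were -0.097 to 0.052 between the Bax null and the other groups, and 0.153 to 0.287 between the Atoh7 null groups. The numbers were not taken to pair libraries in the main fits.

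Differences in the share of cells in the high S phase range reversed when cells were thinned to a depth over the TMM factor: -11.5 and -10.3 points in progenitors and -7.71 and -4.38 in neurogenic cells for the double null and the Bax het Atoh7 null minus the Bax null libraries, and -1.23 in progenitors between the Atoh7 null groups, where the neurogenic difference moved in the same direction, from -1.76 to -3.34. For Bax het Atoh7 null minus Bax null progenitors a limit at 2% or 10% of ganglion cells gave 11.2 or 7.67 points and no thinning 6.44. For neurogenic cells, double null minus Bax null, these were 13.8, 7.26 and 5.04, and thinning to 1500 UMIs gave 16.5, with 30.2% and 48.0% of the double null cells left out as shallower against 3.25% and 3.65% of the Bax null cells. For Bax het Atoh7 null minus Bax null they were 13.9, 8.83 and 6.75, and doublets left out gave 11.1. Between the Atoh7 null groups the 2% limit gave -0.120 and 1500 UMIs 3.72. With 1 library left out the progenitor differences ranged from 7.06 to 15.8, -2.56 to 6.13 and 8.53 to 10.7, and the neurogenic from 9.55 to 11.3, -2.51 to -1.01 and 11.3 to 13.0. Summed levels divided by the TMM factor differed by -812 and -634 CPM in progenitors, -225 and 67.1 in neurogenic and 95.8 and 96.1 in ganglion cells for the double null and the Bax het Atoh7 null minus the Bax null libraries, in place of 1096 and 960.2, 1486 and 1538, and 501 and 405, and by -0.256 in place of 95.9 in ganglion cells between the Atoh7 null groups. The cause of these shifts was not tested.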
